A study of Mus musculus with 6 samples.

Results

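The 8 genes for the auxiliary subunits of voltage-gated calcium channels were followed in the dorsal root ganglia of mice, which hold the cell bodies of the neurons that carry touch, heat and pain to the spinal cord. They were taken by gene name from a count table of 54532 genes: Cacna2d1, Cacna2d2, Cacna2d3 and Cacna2d4 for the alpha2delta subunits, and Cacnb1, Cacnb2, Cacnb3 and Cacnb4 for the beta subunits. All 8 names occurred once in the table. Bulk RNA sequencing had been done on ganglia of Ash1l+/- mice, which are heterozygous for the histone methyltransferase gene Ash1l, and of their wild-type (WT) littermates, with 3 libraries for each genotype. The sources used here do not give strain, age, sex, the structure of the Ash1l allele or the number of animals behind a library. The p-values therefore measure the spread between these libraries, which may be partly technical.

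A voltage-gated calcium channel is built around a pore-forming alpha1 subunit. The beta subunit binds it from inside the cell and the alpha2delta subunit, a largely extracellular protein cut from 1 precursor, joins it from outside. Both help to bring channels to the membrane and tune how they open. The products of Cacna2d1 and Cacna2d2 bind gabapentin and pregabalin, drugs used against neuropathic pain, and Cacna2d1 is known to rise in sensory neurons after peripheral nerve injury in rodents.

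Total counts were 17209294 to 20545722 per library. WT replicate 2 stood apart. Across genes, which are no replicates, its Pearson correlation in log2 CPM with any other library was 0.846 to 0.877, while every pair among the remaining 5 reached at least 0.981. Summed skeletal muscle markers were at 37.7 CPM in WT replicate 2, against 3.34 to 5.29 in the other libraries, with Tnnc2 at 0 in all 6. The other listed muscle markers were highest in WT replicate 2, except Atp2a1 at 0 and Ttn at 0.299 CPM. In the other libraries Atp2a1 was at 0.0458 to 0.363 CPM and Ttn at 0.259 to 0.724 CPM. Erythrocyte markers were at 627.5 CPM against 31.5 to 101.3, and the 12 sensory neuron markers, all detected, summed to 30110 against 18490 to 19790. That sum was high through Uchl1, Prph and Thy1, and the other 9 were lowest in WT replicate 2. Uchl1 was at 14227 CPM there, against 2258 to 2850 CPM in the other libraries. Ash1l itself was at 66.5, 66.5 and 68.9 CPM in Ash1l+/- replicates 1, 2 and 3, against 60.9, 30.9 and 54.4 CPM in WT replicates 1, 2 and 3. The libraries labelled Ash1l+/- thus did not have less Ash1l, which does not check the labels, and every direction below rests on them. Each result is given with all 6 libraries and with the 5 that remain without WT replicate 2. In these bulk samples, fewer cells of a type and less RNA per cell cannot be told apart.

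The subunit genes differed in base composition, which is shown here because the values below are given with and without the trends along GC share and gene length. The lines below are the middle 60 bases of the longest coding exon of the 3 genes past the test's threshold in the 5 libraries, with G and C in capitals. They are GENCODE M21 sequences on GRCm38, 5′ to 3′ on the gene's strand: chr5:16299978-16300037 (plus) for Cacna2d1, chr11:98003103-98003162 (minus) for Cacnb1 and chr15:98643383-98643442 (plus) for Cacnb3. G and C make up 23, 39 and 36 of the 60 bases, in that order. The same stretch held 36 in Cacnb4, 29 in Cacnb2, 22 in Cacna2d3, 50 in Cacna2d2 and 36 in Cacna2d4. These counts do not follow the order of the transcripts in GC share given below, so such a stretch does not stand for its gene.
Cacna2d1: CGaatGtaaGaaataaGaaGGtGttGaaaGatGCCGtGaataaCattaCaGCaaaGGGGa
Cacnb1: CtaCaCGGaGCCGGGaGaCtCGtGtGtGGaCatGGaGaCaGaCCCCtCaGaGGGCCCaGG
Cacnb3: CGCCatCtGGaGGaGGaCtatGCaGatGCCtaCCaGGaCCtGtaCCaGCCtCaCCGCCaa

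Over the longest annotated transcript, GC made up 39.0% of Cacnb2, 40.5% of Cacnb4, 40.7% of Cacna2d1, 49.1% of Cacna2d3, 52.6% of Cacna2d4, 55.8% of Cacna2d2, 59.8% of Cacnb1 and 61.3% of Cacnb3. Among the genes tested, Cacnb2, Cacnb4 and Cacna2d1 lay at the 4.1, 7.9 and 8.4 percentiles of GC share, while Cacnb1 and Cacnb3 lay at the 95.2 and 97.7 percentiles. The gene lengths in the table ran from 4010 bases for Cacnb3 and 4529 for Cacnb1 to 12416 for Cacna2d1 and 13228 for Cacnb2. The longest coding sequence had 43.3% GC in Cacna2d1, 50.5% in Cacnb2 and 51.0% in Cacnb4, against 59.8% in Cacnb1 and 58.9% in Cacnb3. In Cacna2d1, Cacnb2 and Cacnb4 the longest coding sequence was thus richer in GC than the longest transcript, which had 40.7%, 39.0% and 40.5%.

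**Figure D1:**
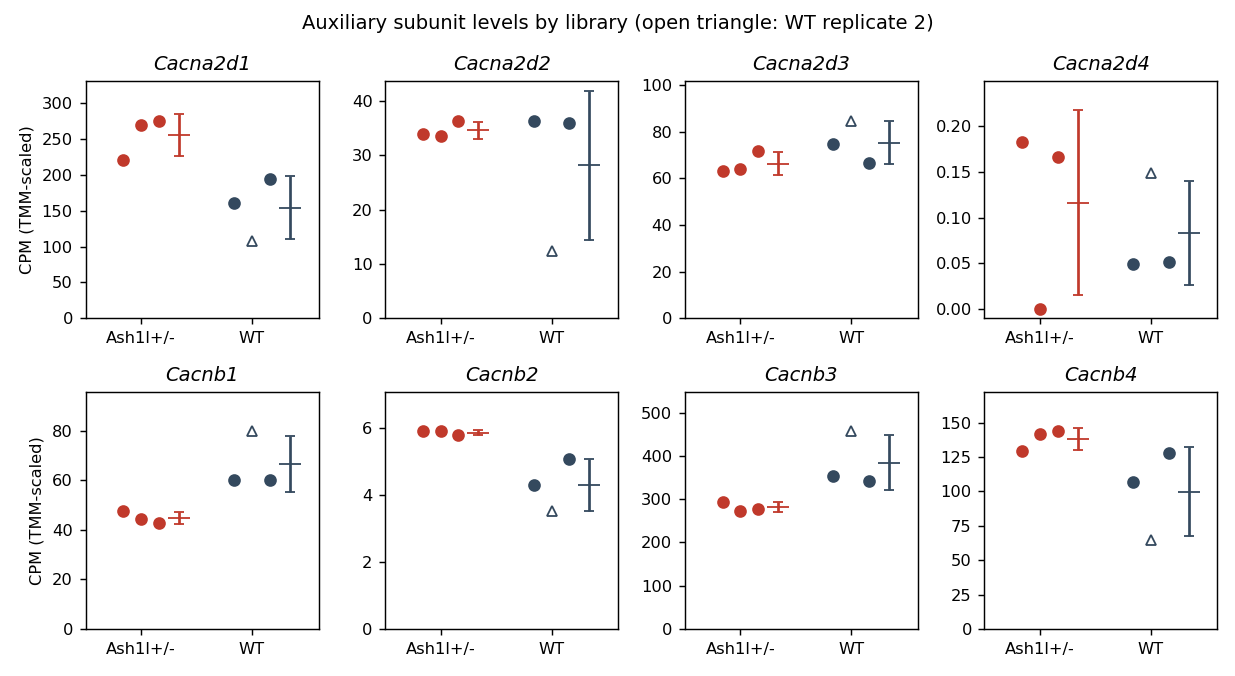
Level of each subunit gene in every library, in CPM after TMM scaling, with the mean and SD of each genotype beside the points (n = 3 each) and WT replicate 2 as an open triangle. Cacna2d1, Cacnb2 and Cacnb4 were higher in all Ash1l+/- libraries than in any WT library, Cacnb1 and Cacnb3 were lower, and Cacna2d2, Cacna2d3 and Cacna2d4 overlapped.

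Cacna2d1 was higher in Ash1l+/- ganglia when WT replicate 2 was left out, by 1.44-fold (95% interval 1.25 to 1.66). The gene (ENSMUSG00000040118) spans chr5:15934691-16374511 of GRCm38, plus strand. It had 221, 270 and 276 CPM in Ash1l+/- replicates 1, 2 and 3, against 160, 108 and 195 CPM in WT replicates 1, 2 and 3; CPM is the count scaled to library size after TMM (trimmed mean of M-values) normalization. Every Ash1l+/- library was above every WT library, and WT replicate 2 was the lowest of all. Means were 256 ± 29.9 CPM in Ash1l+/- and 154 ± 44.0 CPM in WT (SD, n = 3 each). With 5 libraries this was a log2 fold change of 0.53 (SE 0.10, adjusted p = 0.00108 by edgeR's quasi-likelihood test with Benjamini-Hochberg adjustment). With all 6 libraries it was 0.73 (SE 0.25), and it was not called in edgeR (unadjusted p = 0.0260, adjusted p = 0.385). With each library's trends along GC share and gene length removed, the 6 libraries gave 0.02 (SE 0.15, adjusted p = 0.948 in edgeR). The 5 libraries gave 0.14 (SE 0.07, adjusted p = 0.263 in edgeR), a fold of 1.10 with an interval from 0.993 to 1.21.

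Cacna2d2, the other gabapentin-binding subunit, spans chr9:107399612-107529343, plus strand. It had 33.9, 33.5 and 36.4 CPM in Ash1l+/- replicates 1, 2 and 3, against 36.3, 12.3 and 35.9 CPM in WT replicates 1, 2 and 3. The genotypes overlapped, and WT replicate 2 lay at 0.342 of the mean of the other WT libraries. The fold over the 5 libraries was 0.960, with an interval from 0.839 to 1.10 (log2 fold change -0.06, adjusted p = 0.702 in edgeR). With all 6 it was 1.23, with an interval from 0.622 to 2.42, so the direction turned with WT replicate 2. A difference between Cacna2d1 and Cacna2d2 in their response to genotype was not tested. The per-length level of Cacna2d1 was 4.18, 5.15 and 4.85 times that of Cacna2d2 in the Ash1l+/- replicates, against 2.83, 5.59 and 3.47 times in the WT replicates, so that WT replicate 2 had the highest ratio of the 6 libraries.

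Cacna2d3 encodes an alpha2delta subunit that does not bind gabapentin with high affinity and whose fly counterpart is needed for heat nociception. It spans chr14:28904943-29721864, minus strand. It had 63.4, 64.0 and 71.9 CPM in Ash1l+/- replicates, against 74.7, 84.9 and 66.6 CPM in WT replicates 1, 2 and 3, and the genotypes overlapped. With 5 libraries it stood at -0.09 on the log2 scale (SE 0.08, adjusted p = 0.501 in edgeR), and -0.24 (SE 0.08, unadjusted p = 0.00631, adjusted p = 0.0682 in edgeR) with the trends removed. That was the smallest adjusted p among the subunit genes in the 5 libraries with trends removed. Cacna2d4, best known from photoreceptors of the retina, had 4, 0 and 3 counts in Ash1l+/- and 1, 2 and 1 counts in WT, and was not tested. The ratio of its summed scaled counts was 1.58 (95% counting interval 0.403 to 7.38, which covers counting error only).

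Among the beta subunits, 2 of 4 fell in the 5 libraries, where 10.4% of all tested genes did, and 39.4% of the 1638 genes of highest GC share, which hold both. Cacnb3, a neuronal beta subunit often paired with N-type channels, spans chr15:98630840-98644529, plus strand. It had 294, 272 and 278 CPM in Ash1l+/- replicates 1, 2 and 3, against 353, 457 and 341 CPM in WT replicates 1, 2 and 3. All Ash1l+/- libraries were below all WT libraries, and WT replicate 2 was the highest. The fold was 0.811 (interval 0.731 to 0.901), a log2 fold change of -0.30 (SE 0.07, adjusted p = 0.00691 in edgeR). With all 6 libraries it was -0.45 (SE 0.17, unadjusted p = 0.0387, adjusted p = 0.385 in edgeR). With the trends removed from the 5 libraries it stood at 0.04 (SE 0.06, adjusted p = 0.765 in edgeR), on the other side of 0.

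Cacnb1, the beta subunit of the skeletal muscle channel that is also made in neurons, spans chr11:98001508-98023034, minus strand. It had 47.5, 44.2 and 42.7 CPM in Ash1l+/- replicates, against 60.2, 79.7 and 60.1 CPM in WT replicates 1, 2 and 3. The genotypes did not overlap, and WT replicates 1 and 3 were nearly equal. The fold over the 5 libraries was 0.746 (interval 0.660 to 0.844), a log2 fold change of -0.42 (SE 0.08, adjusted p = 0.00218 in edgeR). With all 6 libraries it was -0.57 (SE 0.17, unadjusted p = 0.0147, adjusted p = 0.385 in edgeR). With the trends removed from the 5 libraries it was -0.14 (SE 0.07, adjusted p = 0.291 in edgeR). WT replicate 2, with the highest sum of skeletal muscle markers, also had the highest Cacnb1. The part of muscle in that value was not tested. 

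Cacnb4, a neuronal beta subunit whose loss causes ataxia and seizures in mice, spans chr2:52428320-52676831, minus strand. It had 129, 142 and 144 CPM in Ash1l+/- replicates, against 107, 64.4 and 128 CPM in WT replicates 1, 2 and 3. The genotypes did not overlap, although Ash1l+/- replicate 1 and WT replicate 3 were close. With 5 libraries it stood at 0.24 on the log2 scale (SE 0.08, adjusted p = 0.0551 in edgeR), and -0.09 (SE 0.06, adjusted p = 0.432 in edgeR) with trends removed. Cacnb2, the main beta subunit of the heart, spans chr2:14603088-14987908, plus strand. It had 5.91, 5.90 and 5.79 CPM in Ash1l+/- replicates, against 4.30, 3.51 and 5.08 CPM in WT replicates 1, 2 and 3, without overlap. With 5 libraries its log2 fold change was 0.33, with an interval from -0.06 to 0.71 (adjusted p = 0.229 in edgeR), and -0.11 with trends removed (adjusted p = 0.787 in edgeR).

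**Figure D2:**
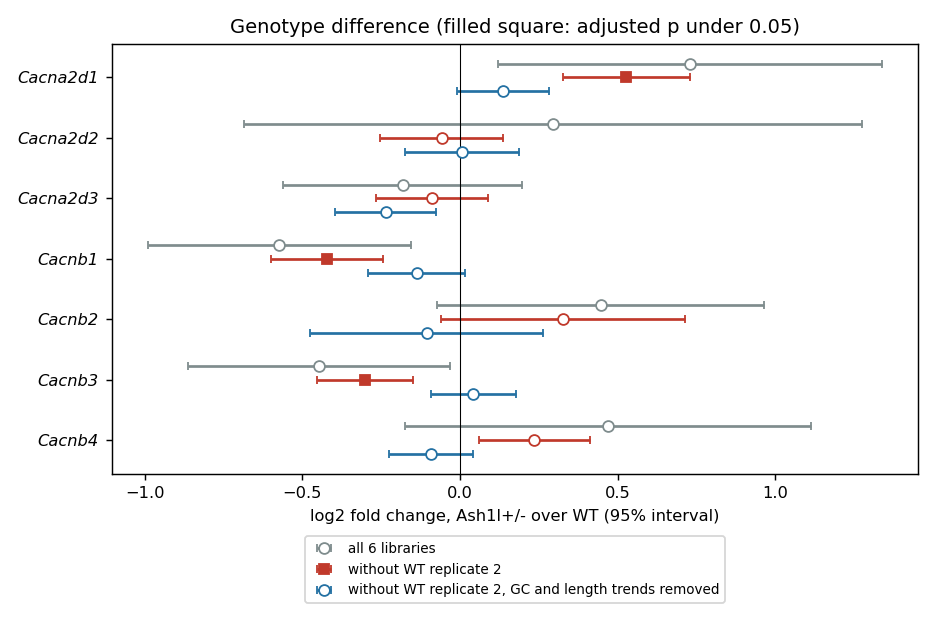
Log2 fold change of each tested subunit gene, Ash1l+/- over WT, with its 95% interval, for all 6 libraries, for the 5 without WT replicate 2, and for those 5 with GC and length trends removed. Filled squares mark an adjusted p under 0.05 and occur for Cacna2d1, Cacnb1 and Cacnb3 in the 5 libraries alone, where the log2 fold changes were 0.53, -0.42 and -0.30.

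In all, 7 of the 8 genes passed the filter on low counts and were tested. With 6 libraries 0 of 7 passed in edgeR, where the share of all 16032 tested genes that passed was 0%. At an unadjusted p of 0.05, 3 of 7 and 1702 of all genes passed. DESeq2 called 35 genes and limma-voom 0, and neither called a subunit gene. In the same 6 libraries, 3 of the 7 were higher without overlap between genotypes, against 19.3% of all tested genes, and 2 were lower without overlap, against 19.2%. Without WT replicate 2, 3 of 7 passed in edgeR, where 19.8% of 16395 genes did. Of these, 1 was higher, against 9.39% of all genes, and 2 were lower, against 10.4%. With trends removed, 0 of 7 passed (1 at an unadjusted p of 0.05), where 7.56% of genes did, 2.71% as higher and 4.85% as lower. Reads were counted with no stated use of strand, so reads of overlapping genes cannot be told apart. Over the 6 libraries, the overlapping genes held 56 counts for Lrtm2 in Cacna2d4, 46 for Bloc1s2-ps in Cacnb4, 24 for Gm13268 and 10 for Gm38273 in Cacnb2 and 21 for Gm11629 in Cacnb1. The 27 others in the 8 subunit genes held 9 counts or fewer.

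In the 5 libraries the fold changes of the 7 genes were ordered along both GC share and gene length, and the trends along each were not removed separately. The log2 fold change had a Spearman rho of -0.821 with GC share and of 0.893 with gene length over these 7 genes, which share the same libraries and whose GC share and length go together. Over 16380 tested genes with a GC value the rho with GC share was -0.552, and with gene length it was 0.277 over 16395 genes. Among the 1638 genes of lowest GC share, which held Cacna2d1, Cacnb2 and Cacnb4, the median log2 fold change was 0.26 and 26.4% of genes were called higher. Among the 1638 genes of highest GC share, which held Cacnb1 and Cacnb3, the median was -0.32 and 39.4% were called lower. Cacnb4 at 0.24 and Cacnb3 at -0.30 thus lay close to the median of these gene sets, while Cacna2d1 at 0.53 and Cacnb1 at -0.42 lay beyond it.

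**Figure D3:**
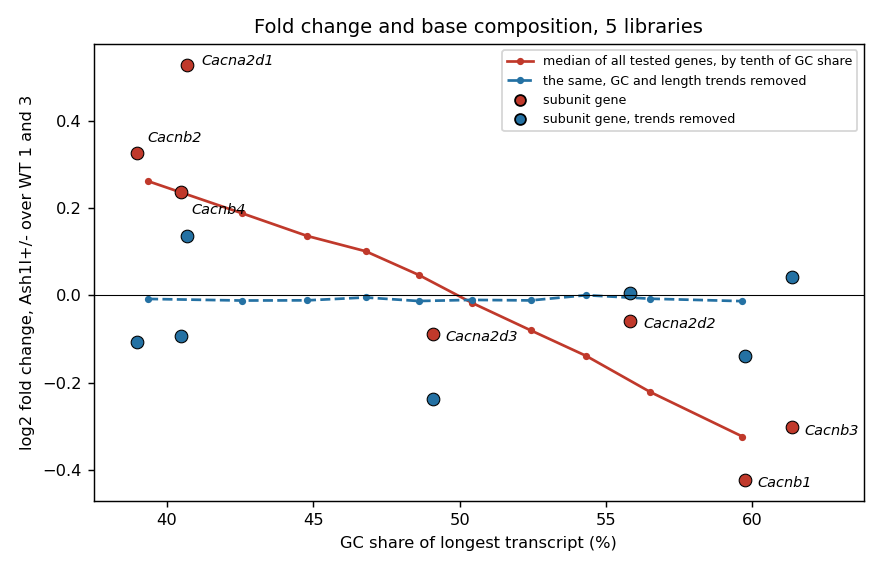
Log2 fold change over the 5 libraries against GC share of the longest transcript, for the 7 tested subunit genes and for the median of all tested genes in 10 equal bins of GC share, before and after removal of GC and length trends. The median of all genes falls across the plot, with 0.26 in the lowest bin and -0.32 in the highest, and the subunit genes fall with it. After removal of the trends the medians lie near 0 and the subunit genes lie between -0.24 and 0.14.

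The same could be followed in single libraries. Relative to WT replicates 1 and 3, Cacna2d1 was higher by 0.33, 0.61 and 0.64 on the log2 scale in Ash1l+/- replicates 1, 2 and 3, where the GC and length trend of each library was 0.31, 0.44 and 0.43. For Cacnb3 the measured differences were -0.23, -0.35 and -0.32, where the trends were -0.21, -0.39 and -0.44. For Cacnb1 they were -0.33, -0.45 and -0.49, where the trends were -0.17, -0.32 and -0.37. Ash1l+/- replicate 1 had the smallest difference and the smallest trend of the Ash1l+/- libraries in all 3 genes. Cacna2d3 lay below its trend, at -0.15, -0.14 and 0.03 in Ash1l+/- replicates 1, 2 and 3, where the trends were 0.14, 0.15 and 0.15. Its sign was opposite to the trend in replicates 1 and 2 and the same in replicate 3. In WT replicate 2, trends were taken over all 6 libraries. Cacna2d1 was at -0.72 there where the trend was -1.05, Cacnb4 at -0.86 where it was -0.91, and Cacna2d2 at -1.54 where it was -0.31. Cacnb2 was at -0.40 where the trend was -1.13, Cacnb1 at 0.41 where it was 0.17, and Cacnb3 at 0.40 where it was 0.30. Cacna2d3 was at 0.27 where the trend was -0.68, with the opposite sign.

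**Figure D4:**
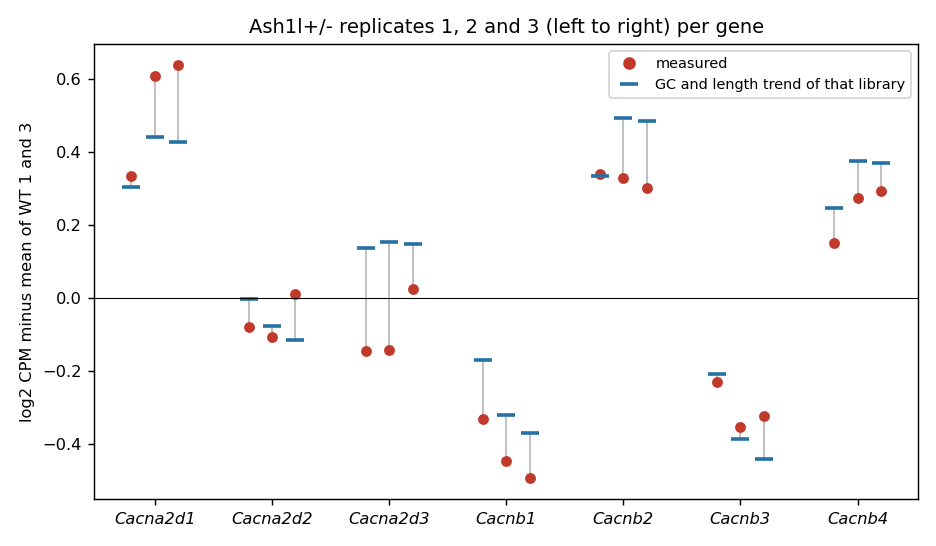
Measured log2 CPM of each tested subunit gene in Ash1l+/- replicates 1, 2 and 3, minus the mean of WT replicates 1 and 3, beside the value of that library's GC and length trend at the gene. For Cacna2d1 replicate 1 lies on the trend, at 0.33 against 0.31, while replicates 2 and 3 lie above it, and Cacna2d3 lies below its trend in all 3.

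Compared per kilobase of gene length, Cacnb3 was the most abundant subunit gene in both genotypes, at 70.1 ± 2.86 CPM per kilobase in Ash1l+/- and 95.7 ± 15.8 in WT (SD, n = 3 each). Below it in Ash1l+/- came Cacna2d1 at 20.6, Cacnb4 at 15.4, Cacnb1 at 9.89, Cacna2d3 at 7.62, Cacna2d2 at 4.36, Cacnb2 at 0.443 and Cacna2d4 at 0.0123, with no overlap between the libraries of neighbours in this order. In WT the order was Cacnb1 at 14.7, Cacna2d1 at 12.4, Cacnb4 at 11.1, Cacna2d3 at 8.65, Cacna2d2 at 3.54, Cacnb2 at 0.325 and Cacna2d4 at 0.00882, and the libraries of Cacnb1, Cacna2d1, Cacnb4 and Cacna2d3 overlapped from each neighbour to the next. Without WT replicate 2, Cacna2d1, Cacnb1 and Cacnb4 were at 14.3, 13.3 and 13.1 and still overlapped. This order and the shares below rest on the gene lengths in the count table. The transcript with the longest coding sequence was shorter, by unlike amounts. It had 3933 bases against 12416 in Cacna2d1, 3695 against 8720 in Cacna2d3, 2236 against 4529 in Cacnb1 and 8225 against 8963 in Cacnb4. An order by transcript length was not computed and may differ.

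Within the alpha2delta family, Cacna2d1 made up 60.7%, 65.3% and 63.4% of the summed per-length level in Ash1l+/- replicates, against 49.6%, 43.4% and 56.3% in WT replicates 1, 2 and 3. Cacna2d3 made up 24.7%, 22.0% and 23.5% in Ash1l+/-, against 32.9%, 48.8% and 27.4% in WT. Within the beta family, Cacnb4 made up 14.6%, 16.9% and 16.8% in Ash1l+/-, against 10.5%, 5.17% and 12.6% in WT, while Cacnb3 made up 72.3% to 74.3% in Ash1l+/- and 75.3% to 82.0% in WT. Cacnb1 made up 9.92% to 10.6% in Ash1l+/- and 11.7% to 12.7% in WT, and Cacnb2 made up 0.453% to 0.476% in Ash1l+/- and 0.191% to 0.340% in WT. In these 6 shares the genotypes did not overlap, and WT replicate 2 was the library farthest from Ash1l+/-. The 2 other shares overlapped: Cacna2d2 made up 14.5%, 12.7% and 13.1% in Ash1l+/-, against 17.5%, 7.77% and 16.2% in WT, and Cacna2d4 stayed under 0.1% in every library. Shares within a family are parts of 1 sum, so a shift in 1 gene moves the others, and the 6 are not separate results. In level, 19.3% of all tested genes were higher and 19.2% lower without overlap between genotypes. Shares were not computed with the GC and length trends removed.

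**Figure D5:**
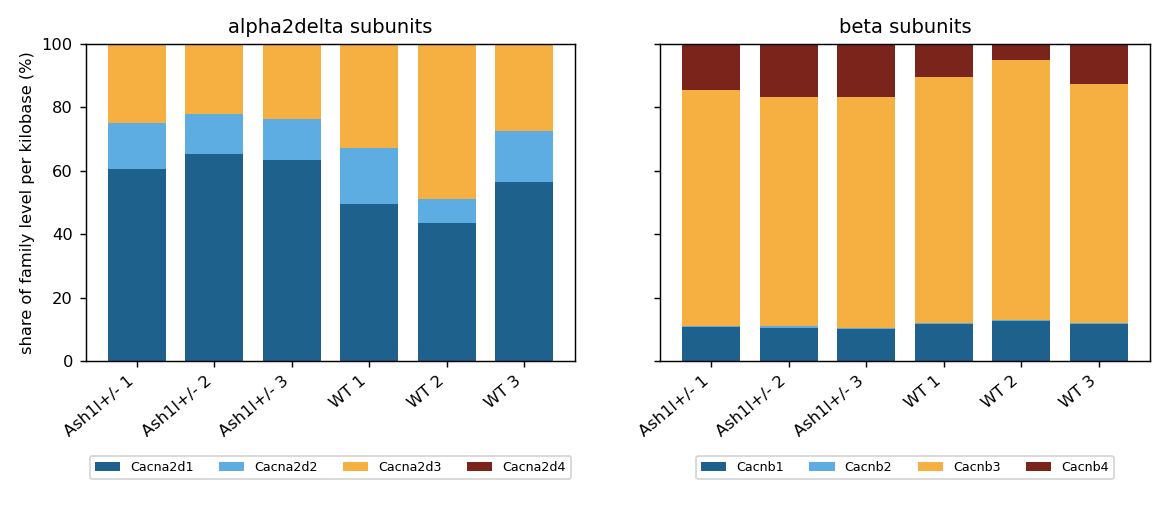
Share of each gene in the summed level of its subunit family, in CPM per kilobase of gene length, for the 3 Ash1l+/- libraries and then the 3 WT libraries. Cacna2d1 takes 60.7% to 65.3% of the alpha2delta level in Ash1l+/- and 43.4% to 56.3% in WT, and Cacnb3 takes most of the beta level in every library. Cacna2d4 and Cacnb2 are too low to be seen.

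The RefSeq promoter of Cacna2d1 is shown because its composition is opposite to that of its transcript: chr5:15934441-15934740, plus strand, GRCm38.p6, from 250 bases before to 50 after the start. It had 80.0% GC, against a median of 52.7% over 32851 promoters, with 42 CpG pairs. One of the 2 promoters listed for Cacnb3, chr15:98634517-98634816, plus strand, had 72.0% GC and 29 CpG pairs, and the other, chr15:98632078-98632377, had 59.7% GC, 7 CpG pairs and 1 GC box. Of the low-GC genes, Cacnb2 had promoters at 71.7% and 44.0% GC, and Cacnb4 at 78.3%, 69.7% and 49.7%, so each had 1 below the median of all promoters. Capitals mark the GC box GGGCGG on either strand, found 7 times with overlaps in Cacna2d1 and 4 times in Cacnb3, and present in 35.7% of all promoters. The letters TGACGTCA (CRE), TGACTCA (AP-1) and TATAAA were searched on both strands and not found in these windows. They occur in 1.79%, 5.2% and 13.6% of all promoters. A match is a description of letters and not of a bound site.
Cacna2d1 promoter: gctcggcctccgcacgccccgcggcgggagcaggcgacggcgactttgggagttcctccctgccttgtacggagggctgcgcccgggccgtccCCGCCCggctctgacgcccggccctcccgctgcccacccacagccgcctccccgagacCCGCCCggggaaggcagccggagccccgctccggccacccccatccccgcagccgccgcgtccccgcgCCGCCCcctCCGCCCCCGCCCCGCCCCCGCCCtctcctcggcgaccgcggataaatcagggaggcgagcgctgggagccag
Cacnb3 promoter: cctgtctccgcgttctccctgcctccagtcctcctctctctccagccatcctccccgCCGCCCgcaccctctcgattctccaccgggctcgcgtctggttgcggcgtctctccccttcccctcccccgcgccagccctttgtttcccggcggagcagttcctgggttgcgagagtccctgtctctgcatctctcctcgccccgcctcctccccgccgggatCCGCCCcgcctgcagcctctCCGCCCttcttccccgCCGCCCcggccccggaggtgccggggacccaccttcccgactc

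Of the pore-forming alpha1 subunit genes, 8 of 10 were tested, and in the 5 libraries 1 rose, 1 fell and 6 did not pass, where 9.39% of all tested genes rose and 10.4% fell, with a median log2 fold change of 0.08 beside 0.002 over all tested genes. Cacna1c, an L-type channel gene at the 54.4 percentile of GC share, rose by 0.24 on the log2 scale (adjusted p = 0.0468 in edgeR). It had 94.1, 101 and 84.5 CPM in Ash1l+/-, against 78.6, 37.8 and 79.2 CPM in WT replicates 1, 2 and 3. Cacna1h, a low-threshold T-type channel gene at the 95.6 percentile, fell by 0.35 (adjusted p = 0.0247 in edgeR). It had 50.7, 49.3 and 48.8 CPM in Ash1l+/-, against 73.1, 11.1 and 53.2 CPM in WT replicates 1, 2 and 3, so WT replicate 2 lay below every Ash1l+/- library. With trends removed 0 of the 8 passed, where 7.56% of all tested genes did. None of the 6 tested of 8 gamma subunit genes passed in the 5 libraries. The most abundant per length were Cacng7, with a log2 fold change of -0.22 (adjusted p = 0.0593 in edgeR), and Cacng5, at -0.05 (adjusted p = 0.812 in edgeR). With trends removed, Cacng4 alone passed, at 0.62 (adjusted p = 0.0348 in edgeR), where 2.71% of all tested genes were higher. It was named after its value was seen. Its levels were 10.3, 7.94 and 6.68 CPM in Ash1l+/-, against 6.17, 16.7 and 5.91 CPM in WT replicates 1, 2 and 3. WT replicate 2 thus lay above every Ash1l+/- library.

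Among 11 listed partners of alpha2delta proteins, which include thrombospondins, Lrp1, Cachd1 and the NMDA receptor gene Grin1, all were tested. In the 5 libraries 2 of them fell, where 10.4% of all tested genes did. Nrxn2 fell by 0.31 (adjusted p = 0.0150) and Grin1 fell by 0.32 (adjusted p = 0.0123), both in edgeR. Nrxn2 and Grin1 lay at the 98.6 and 94.5 percentiles of GC share. With trends removed 0 of 11 passed. Among 8 regulators of beta subunits and channels, 1 rose and 2 fell in the 5 libraries, with a median of 0.23. Over all tested genes 9.39% rose and 10.4% fell. Ahnak, Rem2 and Stac2 lay at the 39.1, 80.8 and 91.0 percentiles of GC share. Ahnak, a large scaffold protein that binds beta subunits, rose by 0.42 (adjusted p = 0.000632 in edgeR). Rem2, a small GTPase that inhibits channels through the beta subunit, fell by 0.62 (adjusted p = 0.00191 in edgeR), and Stac2, an adaptor of L-type channels, fell by 0.27 (adjusted p = 0.0393 in edgeR). Rem2 had 22.7, 17.9 and 19.3 CPM in Ash1l+/-, against 33.6, 62.5 and 27.7 CPM in WT replicates 1, 2 and 3. Stac2 had 72.6, 63.3 and 80.5 CPM in Ash1l+/-, against 88.2, 51.4 and 85.9 CPM in WT replicates 1, 2 and 3. For Stac2, WT replicate 2 thus lay below every Ash1l+/- library. With trends removed Rem2 still passed at -0.37 (adjusted p = 0.0317 in edgeR), and Stac, named after its value was seen, passed at 0.29 (adjusted p = 0.0373 in edgeR). Before trend removal Stac had 67.7, 80.8 and 66.8 CPM in Ash1l+/-, against 72.6, 62.2 and 65.4 CPM in WT replicates 1, 2 and 3. The genotypes overlapped in these values. Over all tested genes 2.71% rose and 4.85% fell with trends removed. With all 6 libraries 0 genes of any of these lists passed.

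Of 10 axon injury genes, 7 rose and 0 fell in the 5 libraries, with a median of 0.74, where 9.39% of all tested genes rose. With trends removed 9 rose, where 2.71% of all tested genes did. The epithelial envelope gene Sprr1a, induced in injured sensory neurons, had 6.23, 23.6 and 13.2 CPM in Ash1l+/-, against 0, 11.3 and 0.0518 CPM in WT replicates 1, 2 and 3. The neuropeptide gene Npy had 1.05, 3.27 and 2.56 CPM in Ash1l+/-, against 0.0494, 1.05 and 0 CPM in WT replicates 1, 2 and 3. The peptidase gene Ecel1 had 5.13, 12.9 and 7.90 CPM in Ash1l+/-, against 0.642, 4.41 and 0.415 CPM in WT replicates 1, 2 and 3. In these 3 genes WT replicate 2 was above the other WT libraries, and with all 6 libraries 0 of 10 passed in edgeR. Gal, also among the 7 and named after its value was seen, had 12.6, 17.6 and 14.4 CPM in Ash1l+/-. It had 9.63, 55.1 and 9.85 CPM in WT replicates 1, 2 and 3, so WT replicate 2 lay above every Ash1l+/- library. The injury transcription factor Atf3 had 20.1, 35.8 and 24.0 CPM in Ash1l+/-, against 6.96, 11.1 and 6.58 CPM in WT replicates 1, 2 and 3. Its lowest Ash1l+/- value was in replicate 1, which also had the lowest Cacna2d1 of the Ash1l+/- libraries, and its highest WT value was in replicate 2, which had the lowest Cacna2d1 of all. Satellite glia markers summed to between 1178 and 1237 CPM in Ash1l+/-, against 1014 to 1020 CPM in the WT libraries numbered 1 and 3, and 2301 CPM in the remaining WT library. Markers of myelinating Schwann cells summed to between 3839 and 4555 CPM in Ash1l+/-, against 4660 to 5694 CPM in WT. In the 5 libraries 4 of 6 satellite glia markers passed as higher and 1 as lower, and 3 of 6 Schwann cell markers passed as lower, where 9.39% of all tested genes were higher and 10.4% lower. With trends removed, 3 satellite glia markers were higher and 0 lower, and 2 Schwann cell markers were lower, where 2.71% of all tested genes were higher and 4.85% lower. The part of glia or of injured neurons in the Cacna2d1 level was not tested. Sensory neuron markers summed to 18490 to 19790 CPM in Ash1l+/-, against 18620 to 18700 in WT replicates 1 and 3. In the 5 libraries 2 of 12 were called higher and 1 lower. With trends removed 3 of 12 were higher and 0 lower, where 2.71% of all tested genes were higher and 4.85% lower.

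The genes most like Cacna2d1 over the 6 libraries were Trove2, Tnik and U2surp, with root mean square differences of 0.05, 0.06 and 0.07 in log2 CPM after each gene was centred on its own mean. They lay at the 2.3, 24.1 and 3.0 percentiles of GC share. Those most like Cacna2d2 were App, Carf and Prep, at 0.02, 0.02 and 0.03. They lay at the 31.4, 2.3 and 32.1 percentiles, while Cacna2d2 itself lay at 81.9. In both Cacna2d1 and Cacna2d2 the library farthest from the mean was WT replicate 2. Both searches ran over 13133 other protein-coding genes with a mean of at least 1 CPM.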

How the data were processed

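Bulk RNA-seq counts from 6 mouse dorsal root ganglion libraries were used, grouped by sample title. Per the labels' protocols, frozen ganglia were extracted with Trizol and libraries made with a NEBNext Ultra RNA kit, which as named does not mark strand. The authors deposited raw read counts per gene. The submitters' processing notes name HISAT2 2.0.5, featureCounts 1.5.0-p3 and the build GRCm38 (mm10), without parameters. FPKM values were deposited too, which equal the counts divided by gene length and by an effective size of each library. That size was 1.02 to 1.04 times the summed counts, except 0.750 times in WT replicate 2. They served as an alternative scale. No pair of libraries matched within sampling noise (lowest chi-square per degree of freedom 3.86).

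Genes kept by filterByExpr were tested with edgeR 4.0.16 (R 4.3.3, TMM factors, quasi-likelihood test, genotype as the only term, Benjamini-Hochberg at 0.05 over all tested genes). SE is the log2 fold change over the square root of F. For trend removal, loess curves (span 0.3) of each library's log2 CPM deviation (prior count 2) on gene length, then on GC share of the longest GENCODE M21 transcript, were entered as offsets. GC was found for 99.9% of tested genes. limma 3.58.1, DESeq2 1.42.0 and the other alternatives are described in the closing section. The subunit genes, lists and tests, and the use of 5 libraries, were chosen with earlier results of these data known. All 8 genes and Ash1l are always named. From other lists, those past the threshold in the 5 libraries with the largest change are named, at most 4 a list, or the most abundant pair where none passed. The result of 1 gene in the list of alpha2delta partners is not reported here, so that list's count of higher genes and its median are left out. The edgeR code was tested on simulated counts.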

Additional observations from a re-analysis of the deposited data

How the results depend on the processing

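With all 6 libraries, 0 of 7 subunit genes and 0 of 16032 genes passed in edgeR (1702 at an unadjusted p of 0.05). DESeq2 called 35 genes, and no other alternative that kept all libraries called any. Leaving out each library in turn gave 0 to 3252 genes and 0 to 3 subunit genes, with counts above 0 only when WT replicate 2 was left out. Without it, 3252 genes and 3 subunit genes passed. In those 5 libraries the count was 1528 with limma on log2(FPKM + 1), 1587 with a pseudocount of 0.1, and 1240 with trends removed, where 0 subunit genes passed. Leaving out a further library gave 796 to 4198 genes and 2 to 4 subunit genes. The lowest counts came without WT replicate 1, where Cacnb3 no longer passed (adjusted p = 0.0807 in edgeR). Without WT replicate 1 or 3, the single WT library left was assumed to vary like the Ash1l+/- libraries. Without Ash1l+/- replicates 2 or 3, 1855 and 2120 genes passed. The cause of these differences was not tested. Cacna2d1 and Cacnb1 had the same sign in the 17 alternatives with 6 libraries and the 16 with 5, where each was called in 15. With 6 libraries and trends removed Cacna2d1 was close to 0, at 0.02 (adjusted p = 0.948 in edgeR), and Cacnb1 was at -0.22. The median of all tested genes was at -0.07 in that setting, so signs there are not taken from the middle of all genes. With 5 libraries Cacnb4 was called in 6 of 16. Directions turned under trend removal for Cacnb2 (-0.36), Cacnb3 (0.0085) and Cacnb4 (-0.10) with 6 libraries, and for Cacna2d2 (0.0066), Cacnb2 (-0.11), Cacnb3 (0.042) and Cacnb4 (-0.092) with 5. Leaving out each library of the 6 gave Cacna2d2 -0.059 to 0.52, the lowest without WT replicate 2. Library totals moved the median of all genes to 0.13 with 6 libraries, and Cacna2d3 then stood at -0.02. With the replicate number as a block, 0 genes passed with 6 libraries, and 3982 genes and 4 subunit genes with 5. Same-numbered libraries deviated from their group means with correlations of 0.0005, -0.03 and 0.04, so the numbers were not taken as pairs. Depths of 47 to 129 counts per library limit Cacnb2, and 0 to 4 counts limit Cacna2d4.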
